A study of Homo sapiens with 12 samples.

Results

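The genes described here are 40 members of the ATF4 amino-acid response and of the unfolded protein response (UPR), picked by name as textbook components and targets of both pathways. ASNS was not analysed here, so 39 members were measured among the 15601 genes tested, 30 in the ATF4 arm and 9 in the UPR arm. The cells were SNU449, a mesenchymal-like human hepatocellular carcinoma (HCC) line, and SNU449-Axl-KO, a CRISPR/Cas9 derivative that lacks the receptor tyrosine kinase Axl. Each was used naive (ctrl) or after adaptation to the kinase inhibitor Regorafenib (Rego), raised stepwise to 2 times the half-maximal inhibitory concentration. This gave 4 groups of 3 libraries, named SNU449-ctrl, SNU449-Rego, SNU449-Axl-KO-ctrl and SNU449-Axl-KO-Rego. Each group was a single cell population, so the tests measure the spread between libraries only, which may be technical. The sample titles read plusRego for the resistant groups and parental for the naive ones. They do not state whether Rego was in the medium at harvest.

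RNA was read by QuantSeq, which counts one tag near the 3′ end of each transcript. The value of a gene in a library is a rounded score, 2 raised to the variance-stabilised level after the authors removed the effect of preparation date. The total count of a library is not given in these tables, so depth per library is unknown. The authors' mean normalised count over the 12 libraries ran from 10.9 for CHAC1 to 3046 for HSPA5 among the members, with a median of 287, and 7 members lay below 50. The genes lie apart in the genome (GRCh38), for example ATF4 at chr22:39519695-39522683 (+ strand), VLDLR at chr9:2621182-2660056 (+ strand), PHGDH at chr1:119648411-119744218 (+ strand) and SLC38A2 at chr12:46358188-46372773 (- strand). AXL, the deleted gene, checked the labels: it had values of 715 to 1271 in the 6 libraries of SNU449 and of 33 to 53 in the 6 libraries of SNU449-Axl-KO. Of 10 hepatocyte markers 3 were among the genes analysed, and their summed value was 67 to 133 in every group but SNU449-Axl-KO-Rego, where it was 249 to 606. All 5 mesenchymal markers were measured, with sums of 16054 to 29377. Of 4 leukocyte and endothelial markers only PTPRC and CD68 were measured, at 19 to 45, near the lowest value of the table, which was 12.

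The ATF4 arm is a translational and transcriptional programme. When amino acids run short, or when unfolded proteins build up in the endoplasmic reticulum (ER), kinases phosphorylate the initiation factor eIF2, bulk translation falls, and the mRNA of the bZIP factor ATF4 is translated better. ATF4 then binds DNA with C/EBP partners and raises transcription of amino acid transporters, biosynthetic enzymes and aminoacyl-tRNA synthetases, as well as of the stress factors DDIT3 (CHOP) and TRIB3. The UPR has further arms through the sensors ERN1 (IRE1), which splices XBP1 mRNA, and ATF6. They raise ER chaperones such as HSPA5 (BiP) and the machinery of ER-associated degradation. ATF4 protein and XBP1 splicing were not measured in these data.

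One library stood apart in the ATF4 arm and has to be described before the comparisons. ATF4 itself had values of 638, 602 and 1371 in SNU449-Rego replicates 1, 2 and 3. In SNU449-ctrl they were 1093, 1209 and 1023, in SNU449-Axl-KO-ctrl 740, 646 and 577, and in SNU449-Axl-KO-Rego 1023, 1123 and 652. Replicate 3 of SNU449-Rego was the highest of all 12 libraries, while the other two of its group were among the lowest. TRIB3, a pseudokinase that ATF4 induces and that feeds back on it, had values of 135, 106 and 434 in SNU449-Rego and of 55 to 179 in the other 9 libraries. SLC3A2, the heavy chain shared by several amino acid transporters, was at 456, 492 and 1498 in SNU449-Rego and at 266 to 668 elsewhere. PHGDH, the first enzyme of serine synthesis, was at 135, 138 and 417 in SNU449-Rego. Again replicate 3 alone was high.

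Expressed as the log2 distance of this library from the mean of the other 2 of its group, the median was 0.82 over the 39 members and -0.0061 over all genes. The median was 0.99 for the 6 bZIP factors, 0.93 for the 7 stress effectors, 0.77 for the 5 enzymes of serine, glycine and one-carbon metabolism, 1.34 for the 3 transporters and 0.87 for the 9 aminoacyl-tRNA synthetases. Of the 30 ATF4-arm members, 27 were highest of their group in this library, as were 34% of all genes, and 12 exceeded the other 2 by more than 1 on the log2 scale, as did 0.423% of all genes. In 18 of these 30 members (60%) the library was the highest of all 12, against 10.9% of all genes. The largest distances were those of TRIB3 (1.85), SLC3A2 (1.66), PHGDH (1.60), PSAT1 (1.46) and CEBPG (1.37), which ranked 3, 5, 7, 11 and 16 among the 15601 genes. ATF5, NARS1 and SLC38A2 did not share this, with distances of -0.14, -0.28 and -0.77. SLC38A2 (SNAT2), a sodium-coupled neutral amino acid transporter, thus stood furthest below its group, and the other 27 members besides these 3 were highest of theirs.

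By the same distance the UPR arm moved little with this library. Its 9 members had a median distance of 0.054, with -0.011 for ERN1, 0.12 for XBP1, 0.054 for HSPA5 and -0.30 for HSP90B1 (GRP94). The extremes were -0.30 and 0.37, the latter of EIF2AK3 (PERK). The median was 0.58 for 21 further ATF4-dependent genes, led by the cystine transporter SLC7A11 at 1.53, but -0.052 for 25 further UPR and ER folding genes, 0.14 for 11 cytosolic aminoacyl-tRNA synthetases outside the member list and -0.061 for 16 mitochondrial ones. Mitochondrially encoded genes had a median of -0.017 and the spike-in RNAs one of -0.13. The median absolute distance over all genes was 0.21 in this library and 0.15 to 0.21 in the other 11, the 0.21 being that of SNU449-ctrl replicate 3. The genes more than 1 above the rest of their group numbered 66 in this library and 0 to 58 in the others. Its ATF4-arm median was 0.48 to 0.55 in the 3 tables that pair SNU449-Rego with 1 other group. Because an effect along the replicate number had been removed, a high value in replicate 3 of one group pulls down replicate 3 of the others, and only differences between same-numbered libraries are fixed by these values. Between same-numbered libraries, SNU449-Rego minus SNU449-ctrl had UPR medians of 0.10, 0.13 and 0.24 in replicates 1, 2 and 3. The ATF4-arm medians were -0.10, -0.11 and 0.82. The part of library preparation or culture state in this pattern was not tested.

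**Figure D1:**
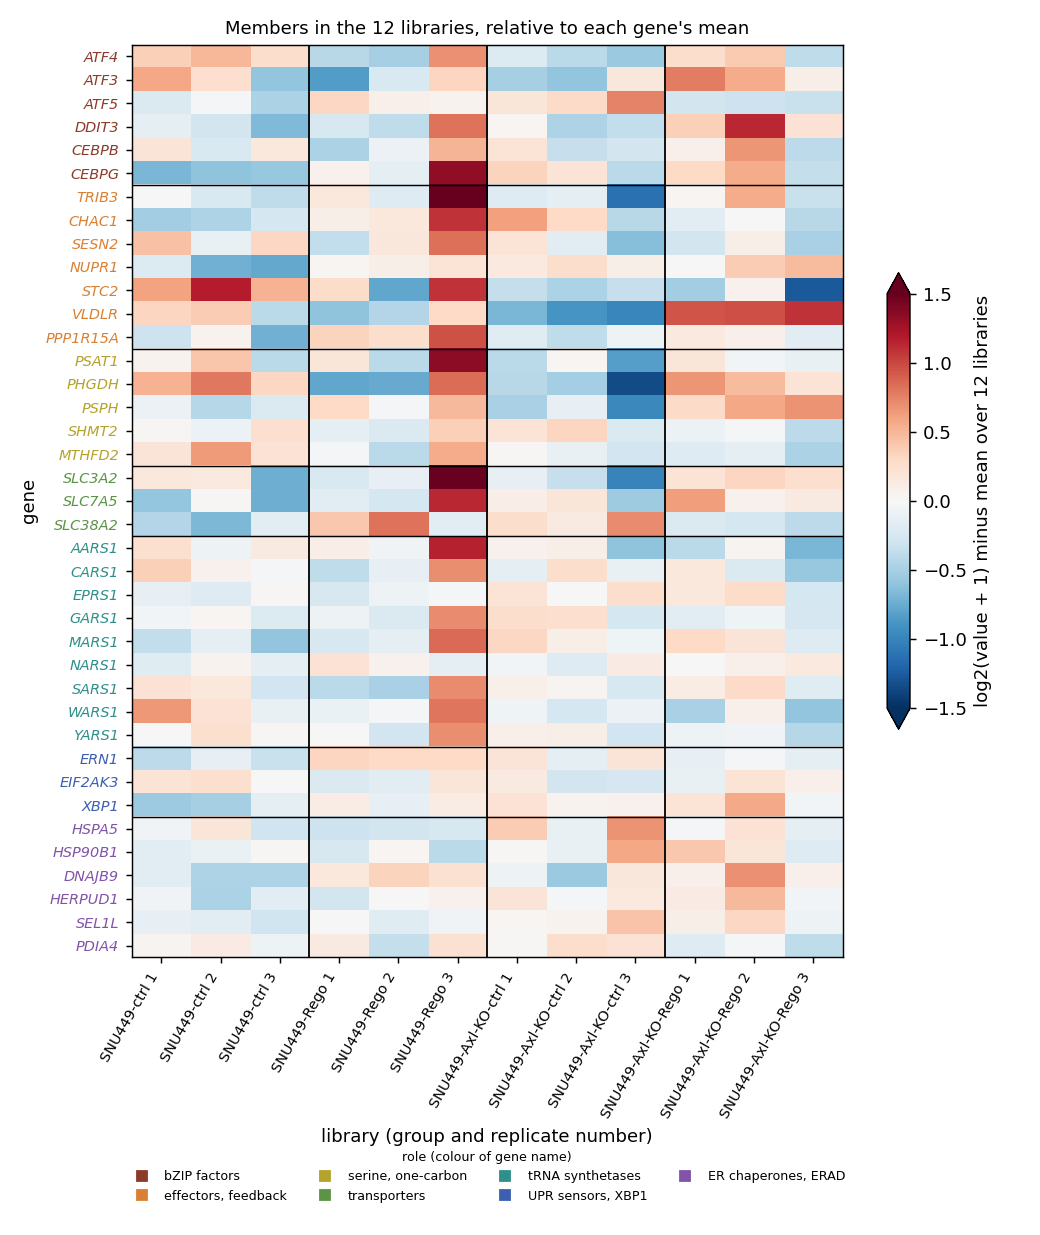
Level of the 39 members (rows, coloured by role) in the 12 libraries (columns), as log2(value + 1) minus the gene's mean over the 12 libraries. The ATF4-arm rows were mostly high in SNU449-Rego replicate 3, where 18 of 30 reached their highest value, and the UPR rows were not.

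**Figure D2:**
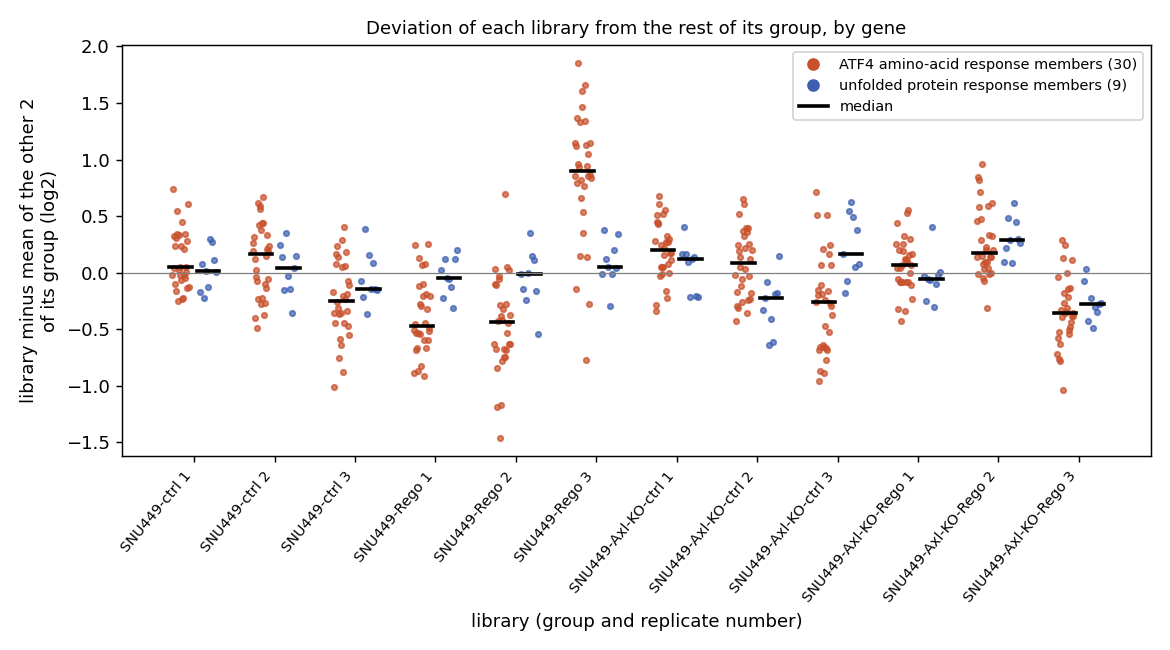
Log2 distance of each library from the mean of the other 2 of its group, one point per member, with medians as bars. The ATF4-arm median was 0.90 in SNU449-Rego replicate 3 and between -0.47 and 0.20 in the other libraries.

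Within the groups, the members that followed ATF4 most closely over the 12 libraries were CEBPG, MARS1, YARS1 and SARS1, with correlations of the deviations from the group means of 0.96, 0.95, 0.94 and 0.93. CEBPG is a C/EBP partner of ATF4, and the other 3 charge tRNAs with methionine, tyrosine and serine. Correlations of at least 0.8 were found for 12 of the 29 other ATF4-arm members (41.4%), for 0 of 9 UPR members and for 277 of the other 15600 genes (1.78%). These points share libraries and the removal of the preparation effect, and much rested on SNU449-Rego replicate 3. Lowest over the 12 libraries were SLC38A2 with -0.65 and NARS1 with -0.57. Without SNU449-Rego replicate 3, 3 of 29 members (10.3%) and 38 genes (0.244%) had a correlation of at least 0.8. The values were then 0.89 for CEBPG, 0.86 for MARS1 and 0.82 for YARS1, and -0.21 for SLC38A2 and -0.20 for NARS1, while NUPR1 was lowest at -0.27. The preparation effect had been removed with that library included, so these correlations are not free of it.

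Promoter sequence was looked up because the ATF4-arm members moved together in this library and the ER chaperones did not. RefSeq promoters (GRCh38.p14, 250 bases before the gene start, both strands) were at hand for 35 members. The composite ATF4-C/EBP motif TGATGNAAT stood in 1 of them, GARS1, and in 0.888% of all 35116 promoters. The shorter TGATGNAA, which includes the longer motif and was added after seeing this, stood in 6 members and in 3.14% of all promoters. The ER stress response element, CCAAT and CCACG with 9 bases between them, stood in 3 members, the ER chaperones HSPA5 and HSP90B1 and the factor XBP1, and in 0.074% of all promoters. TGACGTGG, a UPR element, stood in 0 members and in 0.612% of all promoters. The stretches are shown because they set the 2 arms side by side, each written 5′ to 3′ along its gene with the fixed bases of the motif in capitals. Those of GARS1, AARS1 and CHAC1 and the second one of HSP90B1 hold the reverse complement.
GARS1 (chr7:30594834-30594862, + strand): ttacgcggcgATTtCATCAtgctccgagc
CEBPG (chr19:33374060-33374089, + strand): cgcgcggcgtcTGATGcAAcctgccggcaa
AARS1 (chr16:70289675-70289704, - strand): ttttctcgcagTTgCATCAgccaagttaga
CHAC1 (chr15:40953251-40953280, + strand): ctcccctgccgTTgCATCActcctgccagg
ATF3 (chr1:212565205-212565234, + strand): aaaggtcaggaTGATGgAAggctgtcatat
HSPA5 (chr9:125241386-125241414, - strand): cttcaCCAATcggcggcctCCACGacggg
HSP90B1 (chr12:103930211-103930239, + strand): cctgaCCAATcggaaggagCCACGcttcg
HSP90B1 (chr12:103930316-103930344, + strand): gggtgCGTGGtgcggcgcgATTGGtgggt
XBP1 (chr22:28800598-28800626, - strand): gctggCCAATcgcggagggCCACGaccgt
The sixth member with the shorter motif was HERPUD1, an ER-associated degradation gene of the UPR arm. In SNU449-Rego replicate 3 the ATF4-arm genes with the shorter motif, CEBPG, AARS1, CHAC1, GARS1 and ATF3, lay 0.86 to 1.37 above the rest of their group. The median over the whole ATF4 arm, with or without the motif, was 0.90. HERPUD1 lay 0.20 above, and HSPA5, HSP90B1 and XBP1 between -0.30 and 0.12. TRIB3, SLC3A2 and PHGDH, which stood furthest apart, held neither form in this window. A match is a match of letters only. Since the members were picked as textbook components and targets of these pathways, the shares of promoters are a description and not a test.

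Differences between groups were tested with limma on log2(value + 1) over all 4 groups with the replicate number as a block, and a gene was called at a Benjamini-Hochberg adjusted p under 0.05. In bulk RNA, fewer cells expressing a gene and less RNA per cell cannot be told apart. The first comparison asked what Rego resistance changed in SNU449. Here 7.81% of all genes were called, 4.31% up and 3.5% down, against 1 of 39 members up and none down. With an unadjusted p under 0.05 there were 9 members up and 1 down, against 11.5% and 9.71% of all genes. The libraries of the 2 groups did not overlap for 9 members, against 27.9% of all genes, so a lack of overlap is given below as a description only. The median difference was 0.13 over the members and -1e-04 over all genes, with 22 members above 0 and 17 below.

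PPP1R15A (GADD34), which guides the phosphatase that removes the phosphate from eIF2, was the member that rose. It had values of 149, 191 and 112 in SNU449-ctrl and of 233, 222 and 359 in SNU449-Rego. All resistant libraries were above all control libraries. The difference was 0.84 ± 0.231 (log2, SE, n = 3 per group; limma adjusted p = 0.0304), or 1.79-fold. The call ended without SNU449-Rego replicate 3 (0.55), SNU449-ctrl replicate 1 (0.86) or SNU449-ctrl replicate 3 (0.58), with centring on spike-in RNAs (0.79) and in the table of these 2 groups alone (0.70).

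Several members just missed the threshold in SNU449. CEBPG was at 102, 108 and 111 in control and 172, 149 and 415 in resistant libraries, with a difference of 1.03 ± 0.321 (limma adjusted p = 0.0568). CHAC1, which degrades glutathione, was at 24, 25 and 29 against 37, 39 and 75, with 0.86 ± 0.273 (limma adjusted p = 0.0639). Neither pair of groups overlapped. Without SNU449-Rego replicate 3 the differences were 0.42 for CEBPG (limma adjusted p = 0.391) and 0.43 for CHAC1 (limma adjusted p = 0.404). NUPR1, a small stress-induced chromatin protein, had a difference of 0.67 ± 0.204 (limma adjusted p = 0.0507), SLC38A2 one of 0.77 ± 0.238 (limma adjusted p = 0.0533) and ERN1 one of 0.59 ± 0.184 (limma adjusted p = 0.0594). DDIT3, the pro-apoptotic factor CHOP, was at 109, 99 and 76 against 102, 92 and 212. The DDIT3 groups overlapped, with a difference of 0.42 ± 0.298 (limma adjusted p = 0.453).

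Without SNU449-Rego replicate 3 the comparison in SNU449 had the opposite leaning. The median over the members was then -0.17, with 16 above 0 and 23 below, and 1 member was called up and 3 down, against 4.75% of all genes called. The library was left out because it stood apart in these very members, which can lower their spread more than that of other genes, so the counts without it are a description and are not read against the shares of all genes. ATF4 was called lower in resistant cells, by -0.96 ± 0.207 (limma adjusted p = 0.0105), against -0.45 ± 0.275 with all libraries (adjusted p = 0.371). PHGDH fell by 1.49 on the log2 scale (limma adjusted p = 0.000462) and STC2, a secreted glycoprotein of the ER stress response, by 1.17 (limma adjusted p = 0.0466). SLC38A2 rose by 1.12 (limma adjusted p = 0.00581). Same-numbered libraries show the split directly. Resistant minus control ATF4 was below 0 in replicate 1 (-0.78) and replicate 2 and above 0 in replicate 3 (0.42). Of the 30 ATF4-arm members 12, 14 and 27 were above 0, and of the 9 UPR members 5, 5 and 8. Over all 15601 genes 7494, 7568 and 7421 were above 0.

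In the Axl-deficient background, Rego resistance raised 2 members and lowered none, while 4.35% of all genes were called, 2.54% up and 1.81% down. At an unadjusted p under 0.05 there were 5 up and 2 down, against 9.94% and 8.61% of all genes. The groups did not overlap for 8 members, against 29.1% of all genes. The median was 0.088 over the members and 0.0066 over all genes. VLDLR, a lipoprotein receptor that ATF4 induces under ER stress, changed most. It had values of 37, 32 and 30 in SNU449-Axl-KO-ctrl and of 116, 118 and 128 in SNU449-Axl-KO-Rego. The resistant libraries lay above all 9 other libraries of the study. The difference was 1.84 ± 0.25 (limma adjusted p = 0.000258), or 3.59-fold, and it was called under all 20 alternatives, at 1.19 to 1.96.

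Since the scores compress low genes, the group means of the normalised counts were solved by least squares from the authors' means over pairs of groups. No spread between libraries can be given for them. VLDLR came to 37 in SNU449-ctrl, 24 in SNU449-Rego, 9.29 in SNU449-Axl-KO-ctrl and 108 in SNU449-Axl-KO-Rego. That is 11.7-fold between the last pair. For ATF4 the 4 means were 1118, 891, 715 and 1029, and for NUPR1 3.41, 18.5, 24.4 and 32.2. The largest misfit to a mean over a pair was 3.66% for VLDLR, 1.02% for ATF4 and 4.16% for NUPR1. Such a misfit weighs more on the lowest group means.

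PSPH, the phosphatase of the last step of serine synthesis, also rose in SNU449-Axl-KO. It was at 99, 128 and 71 in control and 170, 208 and 223 in resistant libraries, which did not overlap. The difference was 1.04 ± 0.229 (limma adjusted p = 0.0139), or 2.05-fold. It was not called without SNU449-Axl-KO-ctrl replicate 3 (0.75), SNU449-Axl-KO-Rego replicate 2 (0.99) or SNU449-Axl-KO-Rego replicate 3 (0.93). PHGDH of the same pathway was at 175, 163 and 91 against 369, 323 and 269, also without overlap, with 1.20 ± 0.345 (limma adjusted p = 0.0549). PSAT1, the step between them, was at 219, 298 and 164 against 330, 283 and 269. Its groups overlapped, with 0.41 ± 0.338 (limma adjusted p = 0.567).

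Leaving out SNU449-Rego replicate 3, a library outside this comparison, left the differences as they were and lowered the shared estimate of the spread, for PHGDH from an SE of 0.345 to 0.187. This can favour members in which that library stood apart. With it left out 5 members were called up and none down, and 5.04% of all genes were called. They were VLDLR, PSPH, PHGDH at 1.20 (limma adjusted p = 0.0012), DDIT3 at 0.83 (limma adjusted p = 0.0385) and SLC3A2 at 0.75 (limma adjusted p = 0.0393). The DDIT3 values were 123, 87 and 93 in control and 154, 265 and 140 in resistant libraries. They did not overlap. ATF4 overlapped between SNU449-Axl-KO-ctrl and SNU449-Axl-KO-Rego, and its difference was 0.48 ± 0.275 (limma adjusted p = 0.376). The hepatocyte marker FGB, the fibrinogen beta chain, rose by 2.49 in the same comparison (limma adjusted p = 0.000805), and the mesenchymal marker FN1, fibronectin, by 2.47 (limma adjusted p = 0.000544). These were 1 of 3 hepatocyte and 1 of 5 mesenchymal markers, and their part in the member differences was not tested.

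**Figure D3:**
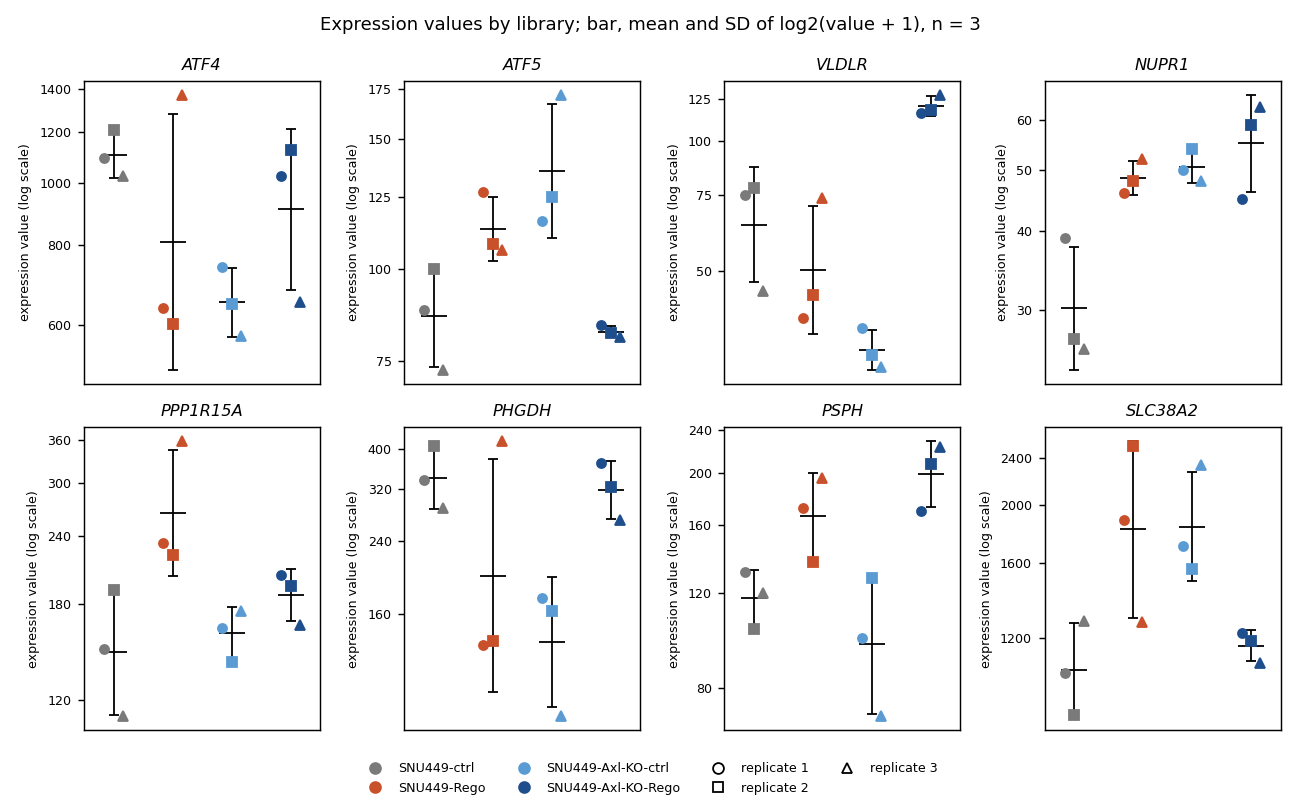
Values of ATF4 and of the 7 members called in any comparison, by library on a log axis, coloured by group and shaped by replicate number, with bars for mean and SD of log2(value + 1) (n = 3). VLDLR was at 116 to 128 in SNU449-Axl-KO-Rego and at 30 to 78 elsewhere, while ATF4 and PHGDH in SNU449-Rego were spread by replicate 3.

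Loss of Axl in control cells raised 2 members and lowered 2, while 7.45% of all genes were called, 4.03% up and 3.43% down. With an unadjusted p under 0.05 there were 5 members up and 4 down, against 11.2% and 10.3% of all genes, and 13 members did not overlap, against 27.9% of all genes. The median was 0.055 over the members and 0.0035 over all genes. PHGDH fell from 336, 405 and 288 in SNU449-ctrl to 175, 163 and 91 in SNU449-Axl-KO-ctrl. The groups were apart, with a difference of -1.30 ± 0.345 (limma adjusted p = 0.0269), or 0.406-fold. VLDLR fell from 75, 78 and 45 to 37, 32 and 30, by -0.94 ± 0.25 (limma adjusted p = 0.027). Every SNU449-Axl-KO-ctrl library was below every SNU449-ctrl library.

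NUPR1 rose from 39, 27 and 26 to 50, 54 and 48, by 0.73 ± 0.204 (limma adjusted p = 0.0355). SLC38A2 rose from 1052, 895 and 1280 to 1712, 1563 and 2335, by 0.79 ± 0.238 (limma adjusted p = 0.0499). Both sets of libraries were apart, but the SLC38A2 call lay at the threshold and was lost under 13 of 21 alternatives, at 0.56 to 0.95. ATF4 was at 1093, 1209 and 1023 against 740, 646 and 577. All 3 knockout libraries were below all 3 SNU449 libraries, and the difference was -0.76 ± 0.275 (limma adjusted p = 0.102). In the table of these 2 groups alone ATF4 was called, at -0.86 (limma adjusted p = 0.043), and STC2 at -1.33 (limma adjusted p = 0.0161). STC2 had a difference of -1.16 ± 0.365 over all groups (limma adjusted p = 0.0613).

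With fewer libraries several of the calls in control cells ended, mostly at differences of similar size. The PHGDH call ended without SNU449-ctrl replicate 1 (-1.31), SNU449-ctrl replicate 2 (-1.13), SNU449-Axl-KO-ctrl replicate 2 (-1.46) or SNU449-Axl-KO-ctrl replicate 3 (-0.90), and with centring on spike-in RNAs (-1.17). That of VLDLR ended without SNU449-ctrl replicate 1 (-0.79) or 2 (-0.76), or SNU449-Axl-KO-ctrl replicate 2 (-0.91) or 3 (-0.86), and with that centring (-0.82). That of NUPR1 ended without any 1 of 5 of the 6 libraries compared, at 0.59 to 0.78, the exception being SNU449-ctrl replicate 1, and in the table of these 2 groups alone (0.54). Leaving out SNU449-Rego replicate 3, a library outside this comparison, left the differences as they were and lowered the SE, to 0.18 for ATF4. That library was picked for standing apart in these members, so the counts without it are a description only. With it left out 6 members were called, 2 up and 4 down. Of all genes 8.17% were called, a share against which these counts are not read. ATF4 at -0.76 (limma adjusted p = 0.0137) and STC2 at -1.16 (limma adjusted p = 0.0159) joined PHGDH and VLDLR among those lower.

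In resistant cells, loss of Axl raised VLDLR and lowered no member, while 4.37% of all genes were called, 2.44% up and 1.93% down. An unadjusted p under 0.05 was found for 2 members up and 8 down, against 9.5% and 8.67% of all genes, and 7 members did not overlap, against 28% of all genes. The median was -0.058 over the members and 0.014 over all genes, with 19 members above 0 and 20 below. Leaving out SNU449-Rego replicate 3 gave 28 members above 0 and 11 below, with a median of 0.24, against 0.013 over all genes. VLDLR was at 39, 44 and 74 in SNU449-Rego and at 116, 118 and 128 in SNU449-Axl-KO-Rego, without overlap. It rose by 1.24 ± 0.25 (limma adjusted p = 0.00749), or 2.37-fold. The call ended without SNU449-Rego replicate 1 (1.01) or replicate 2 (1.12). Without SNU449-Rego replicate 3 VLDLR was at 1.61 (limma adjusted p = 0.000901), and 3 members were then called up and 1 down, with 2.53% of all genes called. As that library was left out for standing apart in these members, the calls without it are a description and are not read against that share. DDIT3 (limma adjusted p = 0.0469, SE 0.255) and PHGDH at 1.39 (limma adjusted p = 0.00144) were higher in SNU449-Axl-KO-Rego, and SLC38A2 was lower, at -0.99 (limma adjusted p = 0.0237). With the library included, PHGDH was at 0.68 ± 0.345 (limma adjusted p = 0.309).

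Whether Rego resistance acted differently in the 2 backgrounds was tested as the interaction, the Rego effect in SNU449-Axl-KO minus that in SNU449. Among all genes 5.87% were called, 2.92% higher and 2.95% lower, and among the members 2 were higher and 2 lower. An unadjusted p under 0.05 was found for 4 in each direction, against 9.65% and 9.79% of all genes. VLDLR had an interaction of 2.19 ± 0.354 (limma adjusted p = 0.00112). Its Rego effect was -0.34 in SNU449 and 1.84 in SNU449-Axl-KO. For PHGDH the interaction was 1.98 ± 0.487 (limma adjusted p = 0.0204), from effects of -0.77 and 1.20. The direction was the reverse for SLC38A2, at -1.43 ± 0.336 (limma adjusted p = 0.0154), from 0.77 and -0.66, and for ATF5, a bZIP factor that is itself translated under eIF2 phosphorylation, at -1.10 ± 0.288 (limma adjusted p = 0.0285).

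ATF5 had values of 88, 100 and 73 in SNU449-ctrl, 127, 108 and 106 in SNU449-Rego, 116, 125 and 172 in SNU449-Axl-KO-ctrl and 84, 82 and 81 in SNU449-Axl-KO-Rego. The resistant libraries were above the control ones in SNU449 and below them in SNU449-Axl-KO. SLC38A2 was at 1888, 2509 and 1276 in SNU449-Rego and 1225, 1186 and 1091 in SNU449-Axl-KO-Rego, against the control values given above. Its Rego and control libraries overlapped in SNU449, through SNU449-Rego replicate 3 and SNU449-ctrl replicate 3, and not in SNU449-Axl-KO. ATF4 had an interaction of 0.93 ± 0.388 (limma adjusted p = 0.181). Without SNU449-Rego replicate 3 it was 1.44 ± 0.274 (limma adjusted p = 0.00499), and 3 members were higher and 2 lower, with 5.08% of all genes called. That library was left out because it stood apart in these very members, ATF4 among them. These values are therefore a description and are not read against the share of all genes. Without that library PHGDH was at 2.69, VLDLR at 2.55 and SLC38A2 at -1.78.

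The PHGDH interaction was not called without SNU449-ctrl replicate 2 (1.81), SNU449-Rego replicate 1 (1.61) or 2 (1.63), SNU449-Axl-KO-ctrl replicate 3 (1.58), or SNU449-Axl-KO-Rego replicate 1 (1.83) or 2 (1.96). That of SLC38A2 was not called without SNU449-ctrl replicate 2 (-1.27) or SNU449-Rego replicate 2 (-1.13). That of ATF5 was lost under 10 of 20 alternatives, 9 of them the removal of a single library (at -0.87 to -1.18) and 1 the centring on spike-in RNAs (-0.92). VLDLR was called under all 19 alternatives. Of the markers, FN1 had an interaction of 4.71 (limma adjusted p = 3.44e-05) and FGB one of 2.38 (limma adjusted p = 0.0126), and their part in these interactions was not tested.

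**Figure D4:**
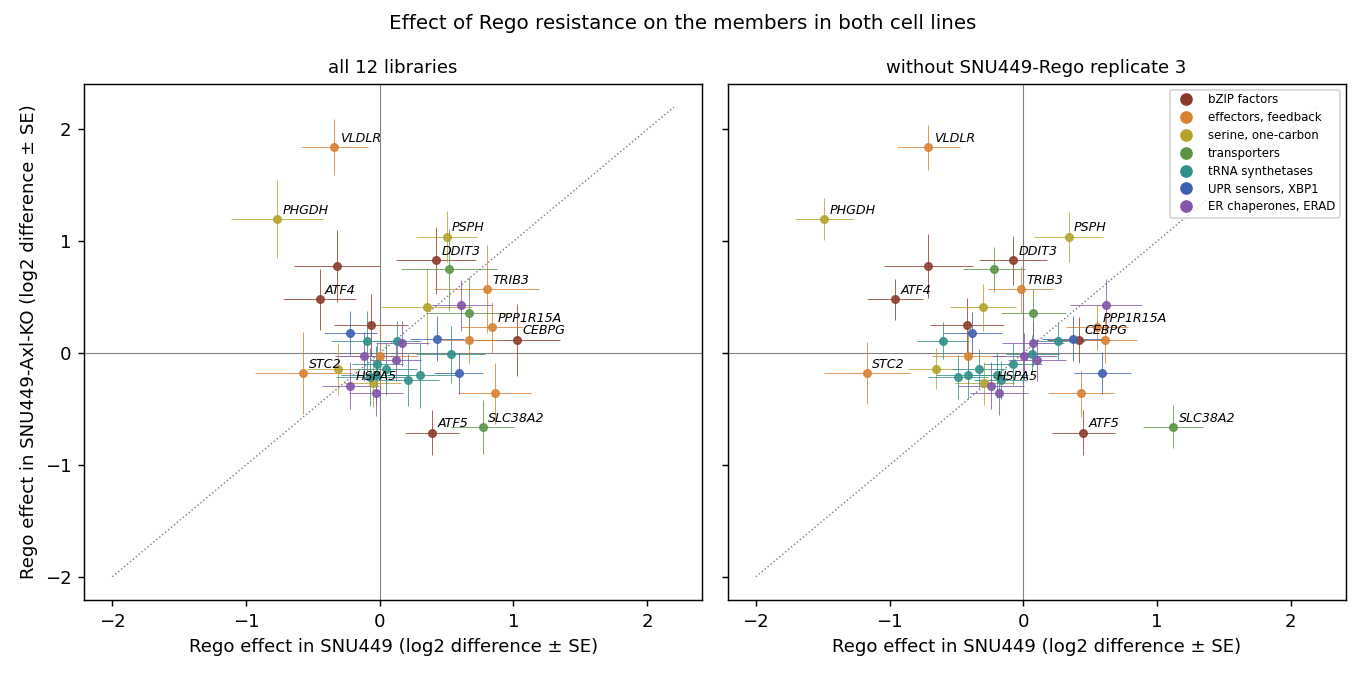
Rego effect of each member in SNU449 (x axis) and in SNU449-Axl-KO (y axis), log2 difference ± SE, with all 12 libraries (left) and without SNU449-Rego replicate 3 (right). The dotted line marks equal effects, and colours mark roles. VLDLR and PHGDH lay above the line and SLC38A2 and ATF5 below it in both panels, while ATF4 moved from -0.45 to -0.96 on the x axis.

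The rest of the ATF4 arm outside the synthetases stayed uncalled in every comparison of the fit with all libraries and the block. Without the block CEBPG and CHAC1 were called up for Rego in SNU449 (limma adjusted p = 0.0394 and 0.0392). STC2 was then called lower for Axl loss in control cells (limma adjusted p = 0.0464), and CHAC1 lower for the interaction (limma adjusted p = 0.0434). ATF3, a bZIP factor of the early stress response, was at 100, 80 and 44 in SNU449-ctrl, 37, 57 and 84 in SNU449-Rego, 47, 44 and 75 in SNU449-Axl-KO-ctrl and 114, 99 and 71 in SNU449-Axl-KO-Rego. Its libraries overlapped between the groups of all 4 comparisons, and its interaction was 1.10 (limma adjusted p = 0.174). CEBPB, the C/EBP-beta partner, ran from 387 to 852 and SESN2, which signals low leucine to the kinase complex mTORC1, from 63 to 176, both with overlap throughout. SLC7A5 (LAT1), the light chain that pairs with SLC3A2 to carry large neutral amino acids, was at 189, 176 and 463 in SNU449-Rego against 127 to 213 in SNU449-ctrl, so that its replicate 3 again stood alone. SHMT2 and MTHFD2, the mitochondrial enzymes that pass one-carbon units from serine, had differences between -0.48 and 0.046 in the 4 comparisons of groups, and MTHFD2 did not overlap between SNU449-ctrl (422 to 576) and SNU449-Axl-KO-ctrl (301 to 373).

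Among the aminoacyl-tRNA synthetases, which load amino acids onto tRNAs, none of the 9 members was called in any comparison. At an unadjusted p under 0.05 there were 2 in all, AARS1 and WARS1. Both were lower on Axl loss in resistant cells, as were 8.67% of all genes. Without SNU449-Rego replicate 3 these 2 differences were -0.25 (limma adjusted p = 0.669) and -0.17 (limma adjusted p = 0.794). With all libraries but without the block none of the 9 was called either. The differences of the 9 were -0.093 to 0.53 for Rego in SNU449 and -0.24 to 0.11 in SNU449-Axl-KO. AARS1 was at 377, 338 and 781 in SNU449-Rego, against 332 to 414 in SNU449-ctrl. MARS1 was at 359, 385 and 768, against 280 to 383. In AARS1 replicate 3 alone lay above the control libraries, and in MARS1 replicate 2 did so too, by a narrow margin. EPRS1, the bifunctional glutamyl-prolyl synthetase, was at 1061 to 1232 in SNU449-Rego and was close to its control values of 1100 to 1274.

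None of the 9 UPR members was called in any of the 5 comparisons. With an unadjusted p under 0.05 there were 3 up for Rego in SNU449, against 11.5% of all genes. For Rego in SNU449-Axl-KO there were 0, against 9.94% up and 8.61% down. Axl loss gave 1 up in control cells, against 11.2%, and 1 down in resistant cells, against 8.67%. For the interaction there was 1 down, against 9.79%. Without the block ERN1 was called, up for Rego in SNU449 and lower for the interaction. XBP1, the factor that IRE1 activates by splicing, was at 146, 151 and 194 in SNU449-ctrl and at 231, 195 and 231 in SNU449-Rego. It was at 248, 221 and 222 in SNU449-Axl-KO-ctrl and at 246, 316 and 207 in SNU449-Axl-KO-Rego. SNU449-ctrl was the lowest of the groups and overlapped none of them. The differences were 0.43 ± 0.202 for Rego in SNU449 (limma adjusted p = 0.234) and 0.50 ± 0.202 for Axl loss in control cells (limma adjusted p = 0.152).

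ERN1, the sensor IRE1, was at 41, 50 and 43 in SNU449-ctrl and at 68, 67 and 67 in SNU449-Rego, without overlap. In SNU449-Axl-KO it was at 49 to 62 in control and 49 to 53 in resistant libraries, which overlapped. Its interaction was -0.76 ± 0.26 (limma adjusted p = 0.0964). EIF2AK3, the eIF2 kinase PERK, had differences of -0.22 and 0.18 for Rego in SNU449 and in SNU449-Axl-KO. DNAJB9, a cochaperone of BiP, was at 58, 47 and 47 in SNU449-ctrl and at 73, 83 and 77 in SNU449-Rego, also apart, with 0.61 ± 0.228 (limma adjusted p = 0.119).

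HSPA5, the ER chaperone BiP, was at 2834, 3309 and 2373 in SNU449-ctrl and at 2370, 2415 and 2484 in SNU449-Rego. It was at 3802, 2710 and 4673 in SNU449-Axl-KO-ctrl and at 2881, 3396 and 2670 in SNU449-Axl-KO-Rego. The SNU449-Rego libraries lay below both SNU449-Axl-KO groups and overlapped those of SNU449-ctrl. Its differences ran from -0.29 to 0.37, with a limma adjusted p of 0.331 to 0.617 in the 4 comparisons of groups. SEL1L, an adaptor of ER-associated degradation, and HERPUD1 did not overlap between the control groups, at 291 to 328 against 365 to 479 and at 145 to 194 against 198 to 231. The 6 ER chaperone and degradation members each had a difference above 0 for Axl loss in control cells, of 0.14 to 0.37 (median 0.29, against 0.0035 over all genes), with a limma adjusted p of 0.273 at best. This leaned on SNU449-Axl-KO-ctrl replicate 3, which lay above the other 2 of its group by a median of 0.44 over these 6 genes. Without that library 4 of 6 were above 0, from -0.038 to 0.31 with a median of 0.12. Between same-numbered libraries 7, 4 and 8 of the 9 UPR members were higher in SNU449-Axl-KO-ctrl in replicates 1, 2 and 3, with medians of 0.18, -0.016 and 0.52. Of all 15601 genes 7674, 7586 and 7408 were higher. Centring on the spike-in RNAs moved all genes of this comparison up by 0.13.

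Of 25 further UPR and ER folding genes, 5 rose and none fell on Axl loss in control cells, against 4.03% and 3.43% of all genes. Above 0 were 20, against 7877 of all 15601 genes, and the median was 0.29, against 0.0035. DNAJB11, an ER cochaperone, was at 155, 189 and 147 in SNU449-ctrl and at 402, 394 and 427 in SNU449-Axl-KO-ctrl. The libraries were far apart, with a difference of 1.32 ± 0.181 (limma adjusted p = 0.000178). MANF, a secreted ER protein, rose by 0.89 (limma adjusted p = 0.00577) and CALR, the lectin chaperone calreticulin, by 0.87 (limma adjusted p = 0.00503). These 3 calls held under all 21 alternatives. The other two were SDF2L1, which binds misfolded proteins with BiP, at 0.82 (limma adjusted p = 0.0243) and the ER chaperone HYOU1 at 0.68 (limma adjusted p = 0.0448), named after their values were seen. The call of SDF2L1 was lost under 5 of 21 alternatives, among them the removal of SNU449-ctrl replicate 1 (0.71) or 3 (0.81) or of SNU449-Axl-KO-ctrl replicate 2 (0.92) or 3 (0.64), and that of HYOU1 under 9 of 21. Rego resistance in SNU449-Axl-KO lowered 3 of the same 25 genes and raised none, against 1.81% and 2.54% of all genes. They were SDF2L1 at -1.13 (limma adjusted p = 0.00469), CALR at -0.89 (limma adjusted p = 0.00716) and DNAJB11 at -0.87 (limma adjusted p = 0.00886). All 3 calls ended without SNU449-Axl-KO-Rego replicate 2 (-0.94, -0.84 and -0.77), and that of CALR also without replicate 1 (-0.87). In SNU449 Rego resistance lowered 1, the disulfide isomerase PDIA6, by -0.71 (limma adjusted p = 0.0159), and raised none. Of all genes 3.5% were lowered and 4.31% raised. The PDIA6 call was lost under 5 of 21 alternatives, among them the removal of any SNU449-Rego library or of SNU449-ctrl replicate 2, at -0.73 to -0.68. The interaction was lower in 3, against 2.95% of all genes. These were CALR at -1.27 (limma adjusted p = 0.00527), DNAJB11 at -1.12 (limma adjusted p = 0.0133) and SDF2L1 at -1.10 (limma adjusted p = 0.0376). The interaction of CALR was called under all 20 alternatives. That of DNAJB11 was lost without SNU449-Axl-KO-Rego replicate 2 (-1.01) and with spike-in centring (-0.94), and that of SDF2L1 under 9 of 20 alternatives, 8 of them the removal of a single library (-0.91 to -1.19). None of the 25 was called for Axl loss in resistant cells, though 1 in each direction was called without the block. At an unadjusted p under 0.05 there were 4 up and 2 down, against 9.5% and 8.67% of all genes.

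**Figure D5:**
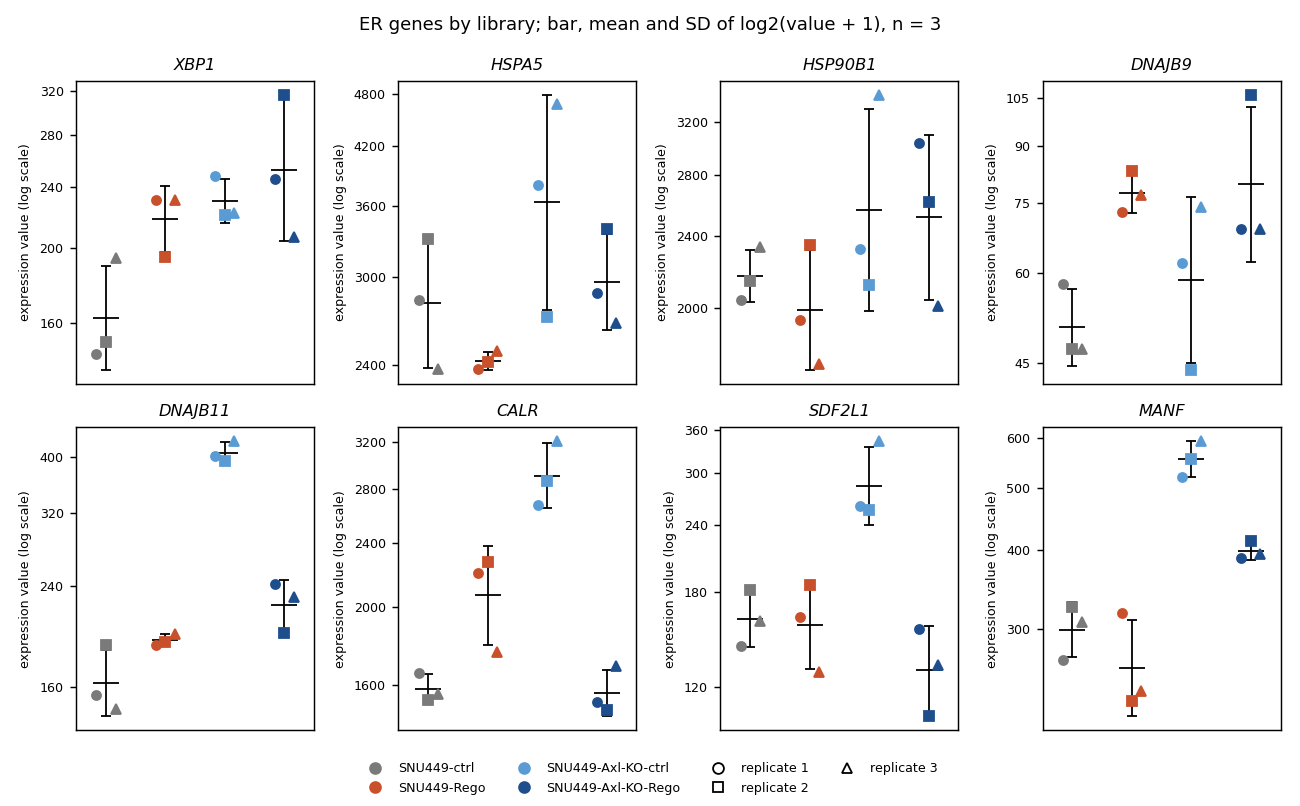
Values of 4 UPR members (top) and of 4 further ER genes called for Axl loss in control cells (bottom), by library on a log axis, coloured by group and shaped by replicate number, with bars for mean and SD of log2(value + 1) (n = 3). DNAJB11, CALR, SDF2L1 and MANF were highest in all 3 libraries of SNU449-Axl-KO-ctrl, while HSPA5 and HSP90B1 overlapped between SNU449-ctrl and SNU449-Axl-KO-ctrl.

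Among 21 further ATF4-dependent genes, 4 rose and none fell with Rego resistance in SNU449, against 4.31% and 3.5% of all genes. Their median was 0.077, against -1e-04 over all genes. GDF15, a stress cytokine, was at 316, 230 and 272 in SNU449-ctrl and at 969, 1615 and 1867 in SNU449-Rego, with 2.40 ± 0.347 (limma adjusted p = 0.000242). All resistant libraries were high, replicate 3 included. GADD45A, a growth arrest gene, rose by 1.16 (limma adjusted p = 0.0382) and PYCR1, an enzyme of proline synthesis, by 1.06 (limma adjusted p = 0.0026). The calls of GDF15 and PYCR1 held under all 21 alternatives, and that of GADD45A was lost under 9 of them, with 0.64 without SNU449-Rego replicate 3. The fourth, SLC1A5, a glutamine transporter named after its values were seen, was at 0.96 (limma adjusted p = 0.0496), and its call was lost under 14 of 21 alternatives, with 0.53 without SNU449-Rego replicate 3. None of the 21 genes was called for Rego in SNU449-Axl-KO, though 1 in each direction was called without the block. At an unadjusted p under 0.05 there were 2 up and 2 down, against 9.94% and 8.61% of all genes. On Axl loss in control cells GDF15 rose by 1.92 (limma adjusted p = 0.00205) and SLC7A11 fell by 1.56 (limma adjusted p = 0.014). The SLC7A11 call ended without SNU449-ctrl replicate 1 (-1.48) or 2 (-1.32), or SNU449-Axl-KO-ctrl replicate 2 (-1.51) or 3 (-1.25). SLC1A5 fell by 1.07 on Axl loss in resistant cells (limma adjusted p = 0.0429), a call lost under 9 of 21 alternatives, with -0.63 without SNU449-Rego replicate 3. The interaction was called for GDF15 at -2.55 (limma adjusted p = 0.00424), for SLC1A5 at -1.77 (limma adjusted p = 0.0147) and for SLC7A11 at 1.95 (limma adjusted p = 0.0339). That of GDF15 held under all 20 alternatives, that of SLC1A5 was lost without SNU449-Axl-KO-ctrl replicate 2 (-1.57) or SNU449-Axl-KO-Rego replicate 1 (-1.67), and that of SLC7A11 was lost on removing any 1 of 8 libraries (1.44 to 1.98).

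The 11 cytosolic synthetases outside the member list had 2 up and 1 down for Rego in SNU449, against 4.31% and 3.5% of all genes. They had 2 down in SNU449-Axl-KO, against 1.81%. For Axl loss in control cells 2 were up and 1 down, against 4.03% and 3.43%. The interaction was lower in 2, against 2.95%. TARS1, the threonyl-tRNA synthetase, rose by 0.98 in SNU449 (limma adjusted p = 0.00271) and by 1.24 on Axl loss in control cells (limma adjusted p = 0.000439). FARSA, a subunit of the phenylalanyl enzyme, had an interaction of -1.63 (limma adjusted p = 0.00263). These TARS1 and FARSA calls held under all alternatives. The other calls in this list, apart from the interaction of TARS1 (-1.25), did not. For Rego in SNU449 FARSA (0.73) was lost under 8 of 21 alternatives, with 0.53 without SNU449-Rego replicate 3, and RARS1 (-0.67) under 7. For Rego in SNU449-Axl-KO FARSB (-0.95) and FARSA (-0.89) were each lost under 6 of 21, and for Axl loss in control cells KARS1 (-0.65) under 8 and FARSA (0.98) under 1, the removal of SNU449-Axl-KO-ctrl replicate 2 (0.82). Among 16 mitochondrial synthetases RARS2 fell in both Axl comparisons, by 0.70 in control cells (limma adjusted p = 0.0328) and by 0.93 in resistant cells (limma adjusted p = 0.00926). The first was lost under 8 of 21 alternatives (-0.56 to -0.77) and the second without SNU449-Axl-KO-Rego replicate 2 (-0.77). The last list held 14 genes, those for eIF2 kinases, eIF2 and its exchange factor eIF2B together with PPP1R15B, NCK1 and IMPACT. Of these EIF2B5 rose on Axl loss in control cells, by 0.67 (limma adjusted p = 0.0293), and no other call was made in the 5 comparisons. The EIF2B5 call was lost under 5 of 21 alternatives, 4 of them the removal of SNU449-ctrl replicate 1 (0.55) or 2 (0.68) or of SNU449-Axl-KO-ctrl replicate 1 (0.63) or 2 (0.63). At an unadjusted p under 0.05, 4 of these 14 were lower with Rego in SNU449-Axl-KO, against 8.61% of all genes, and none was lower or higher in SNU449, against 9.71% and 11.5%. With the block the difference between the backgrounds was not called for any of the 14. Without the block 3 were called lower for Rego in SNU449-Axl-KO, against 725 of all 15601 genes. For the interaction 1 was then lower, against 925.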

How the data were processed

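The authors trimmed the reads with cutadapt 4.0, aligned them with STAR 2.5.3a to GRCh38 with GENCODE 40, to which the spike-ins had been added, and then filtered out genes with few reads and ran DESeq2 with preparation date in the design. The deposited library values are rounded scores, 2 raised to the variance-stabilised level from which the authors had removed the preparation effect. The deposited mean normalised counts (signal scale) are the authors' means over the libraries of a table. Columns with the authors' own fold changes and p-values were not used.

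Over 15601 genes, limma 3.58.1 (R 4.3.3) with empirical Bayes moderation and trend was fitted to log2(score + 1) in the 12-library table, with 4 groups and the replicate number as a block. The block was used because the values had been centred along that number: the median absolute mean of a replicate number was 0.0013 and the median distance of a library from its group mean 0.122 (log2). The p-values were adjusted by Benjamini-Hochberg, with calls under 0.05, and the fit was tested on simulated data. A pseudocount of 1 and the score scale understate changes of low genes. Tables of 2 groups each were scaled separately and were fitted separately.

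The members and lists were chosen with earlier results of these data known. Values are given for every library of ATF4, DDIT3, XBP1, HSPA5 and up to 6 called members per comparison without overlap between groups, and for up to 3 called genes per further list and comparison. Other members shown in full were chosen after their values were seen. Promoters are from RefSeq, GRCh38.p14.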

Additional observations from a re-analysis of the deposited data

Results flagged for a closer look

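In 4 members the effect of Rego resistance differed between SNU449-Axl-KO and SNU449 by the limma interaction term, at 2.19 for VLDLR, 1.98 for PHGDH, -1.43 for SLC38A2 and -1.10 for ATF5 (log2, effect in SNU449-Axl-KO minus effect in SNU449). For VLDLR the resistant libraries were above the control libraries in SNU449-Axl-KO and overlapped them in SNU449. Groups of 3 libraries were not tested for single outlying values.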

How the results depend on the processing

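Without the replicate block, limma called 2175 and 1552 genes for Rego in SNU449 and in SNU449-Axl-KO, 2182 and 1503 for Axl loss in control and in resistant cells and 1826 for the interaction, against 1219, 678, 1163, 682 and 916 with the block. Members called without the block were 6, 4, 6, 1 and 6, in the same order. In the tables of 2 groups, with the block, 603, 818, 603 and 1160 genes were called, and 0 members for Rego in SNU449 and 2 for Axl loss in resistant cells. With mean normalised counts of at least 50, 746, 491, 787, 450 and 652 of 8189 genes were called, and 1 member each for Rego in SNU449-Axl-KO and Axl loss in control cells and 0 for Axl loss in resistant cells. VLDLR and NUPR1 were not among the genes kept. For Rego in SNU449, 2 members were called with no pseudocount and 2 without the trend.

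Centring on spike-in RNAs shifted the median of all genes by -0.058, 0.13, 0.13, 0.32 and 0.19. Higher and lower calls were then 441 and 562, 578 and 133, 941 and 307, 2242 and 84, and 671 and 236, against 673 and 546, 396 and 282, 628 and 535, 381 and 301, and 455 and 461. It called 2326 genes and 3 members for Axl loss in resistant cells, and 0 members for Rego in SNU449. With each library left out in turn, 740 to 1299, 205 to 891, 540 to 1275, 219 to 826 and 523 to 922 genes were called, and 1 to 4, 1 to 5, 0 to 6, 0 to 4 and 1 to 5 members. No called member changed sign under any of these. Where no cause is given, the cause was not tested. Library totals are not in these tables, so what depth limits could not be set per library.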
